A study of Arabidopsis thaliana with 18 samples.

Results

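The line aff1-3 carries an insertion in AUXIN RESPONSE FACTOR F-BOX1 (AFF1), and its 3 samples given indole-3-acetic acid (IAA), the main natural auxin of plants, were set against its 3 mock samples. These are 6 of the 18 RNA-seq samples of the series, and they were chosen by their column names, without use of any measured value. The IAA samples are whole Arabidopsis thaliana seedlings, 4 days old, moved for 2 h to liquid PN (plant nutrient) medium with 10 µM IAA, and the mock samples are seedlings of the same age after the same time with ethanol in place of IAA. The protocol text writes the dose in millimolar, while the study's methods give the micromolar value. The labels call the line aff1-2, but they name it as Salk_083453, the line for which the study uses aff1-3, and that name is kept here. It is 1 insertion line in the Col-0 background, and the other 12 samples are aff1-1 (a point mutation found after chemical mutagenesis) and wild type (Wt; Col-0), each with 3 IAA and 3 mock samples. The replicates are described as repeated treatments, and nothing says that they came from separate cultures, so p-values measure the spread between these samples, which may be technical. Values are CPM, each count divided by its library total and given per 1e+06 counts, after scaling by TMM (trimmed mean of M values), which adjusts library sizes so that most genes have the same level in all samples.

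Auxin brings TIR1/AFB F-box receptors together with Aux/IAA repressors, which are then ubiquitinated and degraded. AUXIN RESPONSE FACTOR (ARF) proteins such as ARF7 and ARF19 are thereby released to activate genes, among them the Aux/IAA genes themselves, the GH3 enzymes that attach auxin to amino acids, the SAUR (small auxin up RNA) genes linked to cell expansion, and LBD genes that start lateral roots. AFF1 is an F-box protein that interacts with ARF7 and ARF19, and the comparison asks which transcripts respond to auxin when AFF1 carries an insertion.

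Total counts were 12610301 to 23456012 in the aff1-3 IAA samples and 23411425 to 27682585 in the aff1-3 mock samples, and 12610301 to 36102396 over all 18. The mock sample 2 of aff1-3 stood farthest from its group, with a standard deviation of 0.21 on the log2 scale across genes, against 0.0859 to 0.158 in the other 17 samples. Replicates of aff1-3 correlated with a Spearman's rho of 0.989 to 0.992 after IAA and 0.981 to 0.991 after mock treatment, across genes, which are not independent. Of 11 root tissue marker genes 0 rose and 1 fell, and their summed level was 181.7 to 211.5 CPM after IAA and 197.9 to 236.3 CPM after mock treatment. Of 11 shoot photosynthesis genes 0 rose and 1 fell, but all had lower fitted levels after IAA, with log2 fold changes from -0.37 to -0.07 (median -0.19). Their summed level was 91850 to 100700 CPM after IAA and 97590 to 109900 CPM after mock treatment. In each list 9.09% fell, against 1.97% of all genes tested. In whole seedlings a lower level cannot be told apart from fewer cells of a type.

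AFF1 (AT3G49150; TAIR10.1, chr3:18218858-18220430, plus strand) was counted in every aff1-3 sample, at 3.16, 2.69 and 3.63 CPM after IAA and 4.02, 3.94 and 5.36 CPM after mock treatment. In aff1-1 it had 0.11, 0 and 0 CPM after IAA and 0.04, 0.13 and 0.04 CPM after mock treatment, and in Wt it had 0.28, 0.25 and 0.04 CPM after IAA and 0.08, 0.25 and 0.25 CPM after mock treatment. Counts on AFF1 were thus higher in all 6 samples of the insertion line than in any of the other 12 samples. Gene counts do not show where in the gene the reads lie, so this does not check whether the full transcript is made. The difference between IAA and mock samples of aff1-3 did not pass (log2 fold change -0.50, SE 0.31, adjusted p = 0.39, edgeR's quasi-likelihood test). All p-values below come from that test with Benjamini-Hochberg adjustment over all genes tested, and a gene is said to have risen or fallen where its adjusted p was below 0.01.

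Of 19383 genes tested, 578 (2.98%) rose and 381 (1.97%) fell after IAA in aff1-3. The rises were larger than the falls in size: 300 genes rose and 124 fell at least 2-fold, and 101 rose and 11 fell at least 4-fold. The median log2 fold change was 1.04 among the genes that rose and -0.81 among those that fell, against 0.00 over all genes tested. Genes that rose had a median mock level of 9.75 CPM, those that fell 22.1 CPM, and all tested genes 14.0 CPM. The same mock samples were used to choose these genes, and genes low after mock treatment were tested only if another group passed the count filter. The order of these medians is thus not a separate result. Together the genes that rose made up 30430 to 31600 CPM after IAA and 14520 to 16260 CPM after mock treatment, a direction fixed by the choice of these genes. Without mock sample 2, which stood apart, 496 genes rose and 313 fell, and without IAA sample 1 or IAA sample 2 the falls were 221.

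IAA and mock samples did not overlap for 955 of the 959 genes, which were chosen by their p-values, so this is not separate support. The other 4 were chosen for mention by their overlap. MAPKKK9, a kinase of MAP kinase cascades, passed on 1 sample alone, with 276.16, 3.59 and 3.00 CPM after IAA and 3.02, 1.52 and 1.75 CPM after mock treatment. AT5G35110 was high in mock sample 2 only, with 4.5, 3.44 and 5.29 CPM after IAA and 5.03, 52.97 and 8.86 CPM after mock treatment. The phenylpropanoid enzyme 4CL2 (4-coumarate:CoA ligase) and the aldolase FBA5 were the other overlapping genes, both called as lower.

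The largest rises were led by LBD29, a LOB-domain transcription factor of lateral root initiation and a known target of ARF7 and ARF19. LBD29 had 100.06, 94.35 and 109.65 CPM after IAA and 1.2, 1.03 and 0.89 CPM after mock treatment, a 96.9-fold difference (log2 fold change 6.60, SE 0.23, adjusted p = 8.74e-15). OFP4, an ovate family transcriptional repressor, followed with 11.43, 12.86 and 13.11 CPM after IAA and 0.70, 0.09 and 0.07 CPM after mock treatment (log2 fold change 5.39, SE 0.36). Its value rested on mock sample 1, without which the log2 fold change was 7.17, above that of LBD29, against 4.90 to 5.45 without each of the other samples. In both genes every IAA sample lay far above every mock sample, although OFP4 was near the limit of counting in 2 of the 3 mock samples.

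GH3.3, an enzyme that conjugates IAA to amino acids, had the highest level among the 10 largest rises, with 827.30, 948.44 and 810.71 CPM after IAA and 18.77, 27.92 and 22.52 CPM after mock treatment (log2 fold change 5.23, SE 0.19, adjusted p = 2.15e-14). Its family member GH3.2 had 470.05, 532.81 and 468.08 CPM after IAA and 15.25, 30.02 and 16.27 CPM after mock treatment (log2 fold change 4.59). ACS4, a synthase of the ethylene precursor, had 17.15, 20.93 and 22.83 CPM after IAA and 0.58, 0.89 and 0.89 CPM after mock treatment (log2 fold change 4.67). None of these 3 genes had overlapping groups.

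Among the repressors, IAA29 reached 65.21, 71.67 and 80.82 CPM after IAA against 3.02, 3.98 and 3.65 CPM after mock treatment (log2 fold change 4.35, SE 0.16). IAA5 reached 59.02, 58.86 and 79.00 CPM after IAA against 3.87, 3.80 and 2.53 CPM after mock treatment (log2 fold change 4.27, SE 0.19). The remaining members of the 10 were AT4G11340, annotated as a TIR-NBS-LRR disease resistance protein (log2 fold change 5.02), and 2 SAUR genes, AT1G29490 (log2 fold change 4.21) and AT2G18010 (log2 fold change 4.14). These last 3 genes were below 8 CPM in every sample.

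**Figure D1:**
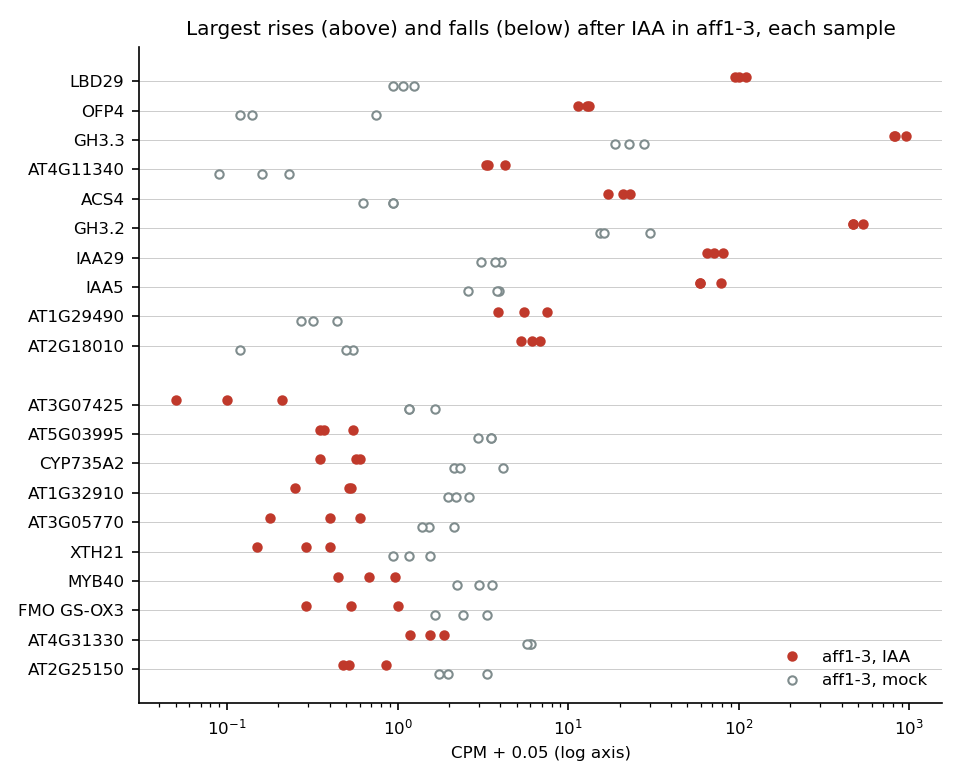
Level of the 10 genes with the largest rises (upper rows) and the 10 with the largest falls (lower rows) in each aff1-3 sample, as CPM plus 0.05 on a log axis; filled points are IAA samples and open points mock samples. LBD29 lies near 100 CPM after IAA and near 1 CPM after mock treatment, and the largest falls lie below 6 CPM throughout.

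The largest falls were among weakly counted genes. AT3G07425, an uncharacterized protein, had 0, 1 and 2 counts after IAA and 29, 36 and 30 counts after mock treatment, so it was at least 7.45-fold lower, set against a floor of 3 counts per sample. AT5G03995, also uncharacterized, had 0.30, 0.50 and 0.32 CPM after IAA and 3.48, 3.49 and 2.90 CPM after mock treatment (log2 fold change -3.11, SE 0.40). CYP735A2, the hydroxylase that makes trans-zeatin type cytokinins, had 0.52, 0.30 and 0.55 CPM after IAA and 4.10, 2.1 and 2.27 CPM after mock treatment (log2 fold change -2.64, SE 0.44, adjusted p = 0.00026). In each of these genes the IAA samples lay below all mock samples. The acyltransferase AT1G32910 (-2.54), the uncharacterized AT3G05770 (-2.37), the cell wall enzyme XTH21 (-2.31), the transcription factor MYB40 (-2.13), the glucosinolate S-oxygenase FMO GS-OX3 (-2.05), AT4G31330 (-2.02) and the acyltransferase AT2G25150 (-2.01) completed the 10, all as log2 fold changes. XTH21 was the least secure of them, with an adjusted p of 0.0078, and it did not pass in 5 of 6 fits that left out 1 aff1-3 sample. FMO GS-OX3 was at -2.64 without IAA sample 2, but it did not pass in 3 of those 6 fits. AT3G05770 and AT2G25150 each did not pass in 2 of the 6.

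AT4G31330, a putative transmembrane protein, was the highest of these falls in level, with 1.13, 1.5 and 1.82 CPM after IAA and 5.96, 5.99 and 5.66 CPM after mock treatment. AT1G32910 had a log2 fold change of -0.17 in Wt, where its mock level was already 0.38, 0.80 and 0.50 CPM, but its responses in aff1-3 and Wt were not shown to differ (adjusted p = 0.12). In aff1-1 its log2 fold change was -2.16.

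Of 26 Aux/IAA repressor genes tested, 21 rose (80.8%) and 1 fell (3.85%), against 2.98% and 1.97% of all genes tested. Their median log2 fold change was 1.22 against 0.00 over all genes. Their summed level was 3483 to 3848 CPM after IAA and 1621 to 1757 CPM after mock treatment. IAA19, a repressor of hypocotyl and root growth responses, had 179.52, 185.31 and 214.80 CPM after IAA and 13.89, 17.31 and 17.87 CPM after mock treatment (log2 fold change 3.56, SE 0.12). IAA28, which acts in lateral root founder cells, was the only member that fell, with 47.15, 45.16 and 48.82 CPM after IAA and 79.02, 79.14 and 76.47 CPM after mock treatment (log2 fold change -0.73, SE 0.08, adjusted p = 5.67e-07). The 4 members that did not pass were IAA8, IAA26, IAA27 and IAA31, with log2 fold changes of 0.02, 0.27, -0.28 and 0.68.

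All 6 group II GH3 genes tested rose, with a median log2 fold change of 3.56, and their summed level was 2737 to 3206 CPM after IAA and 254.5 to 274.4 CPM after mock treatment. GH3.5 was the highest of them, with 1083.54, 1208.47 and 993.52 CPM after IAA and 110.95, 87.55 and 122.67 CPM after mock treatment (log2 fold change 3.35). GH3.17 had the smallest rise, 0.65 on the log2 scale, with groups that did not overlap. Of 4 genes of auxin oxidation and glucosylation, 1 rose, UGT74E2, which glucosylates indole-3-butyric acid (log2 fold change 1.49).

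Auxin synthesis genes moved the other way where they moved. Of 8 TAA and YUCCA genes tested 0 rose and 2 fell (25%, against 1.97% of all genes tested), both encoding flavin monooxygenases that complete IAA synthesis. YUC5 had 13.73, 14.85 and 14.54 CPM after IAA and 28.83, 25.05 and 33.21 CPM after mock treatment (log2 fold change -1.02, SE 0.12), and YUC6 had a log2 fold change of -1.32. Of 11 PIN and AUX1/LAX auxin carriers 7 rose (63.6%, against 2.98% of all genes tested) and 0 fell (median log2 fold change 0.52). The influx carrier LAX2 had 18.62, 16.9 and 16.75 CPM after IAA and 8.24, 8.01 and 6.66 CPM after mock treatment (log2 fold change 1.19, SE 0.15), without overlap. Of the 3 PID and WAG kinases, which phosphorylate PIN proteins, WAG2 (1.11) and PID (0.70) rose.

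The receptors did not pass in either direction (0 of 6 TIR1/AFB genes, log2 fold changes from -0.19 to 0.30); 1 of the 6 had an unadjusted p below 0.05 with edgeR, and 0 passed with DESeq2 or limma. Of 15 ARF genes 2 rose (13.3%, against 2.98% of all genes tested) and 0 fell, with a median log2 fold change of 0.08. ARF19 had 19.27, 25.02 and 17.70 CPM after IAA and 10.80, 14.72 and 7.59 CPM after mock treatment (log2 fold change 0.92, SE 0.18, adjusted p = 0.0019), and ARF16, a repressing ARF, had a log2 fold change of 0.58. The lowest IAA sample of ARF19 was only slightly above its highest mock sample. ARF7 had 20.26, 23.18 and 18.64 CPM after IAA and 25.46, 26.71 and 15.34 CPM after mock treatment, and this difference did not pass (log2 fold change -0.11, adjusted p = 0.80).

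Of 14 lateral root initiation genes 9 rose (64.3%, against 2.98% of all genes tested) and 0 fell, with a median log2 fold change of 2.09. Besides LBD29 these were LBD16, LBD17, LBD18, LBD19 and LBD33, the AP2 factor PUCHI, the founder cell factor GATA23 and the homeobox gene WOX11. GATA23 had 14.16, 15.30 and 16.27 CPM after IAA and 0.66, 1.61 and 1.15 CPM after mock treatment (log2 fold change 3.75, SE 0.22). LBD17 (AT2G42440) had 20.44, 26.22 and 21.25 CPM after IAA and 1.93, 2.59 and 2.83 CPM after mock treatment (log2 fold change 3.21). LBD19 was at the floor in all mock samples and was at least 4.76-fold higher after IAA. The stem cell and primordium factors PLT3, PLT5, PLT7, WOX5 and WOX12 did not pass. Over the 20 LBD genes tested 6 rose and 1, LBD25, fell.

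**Figure D2:**
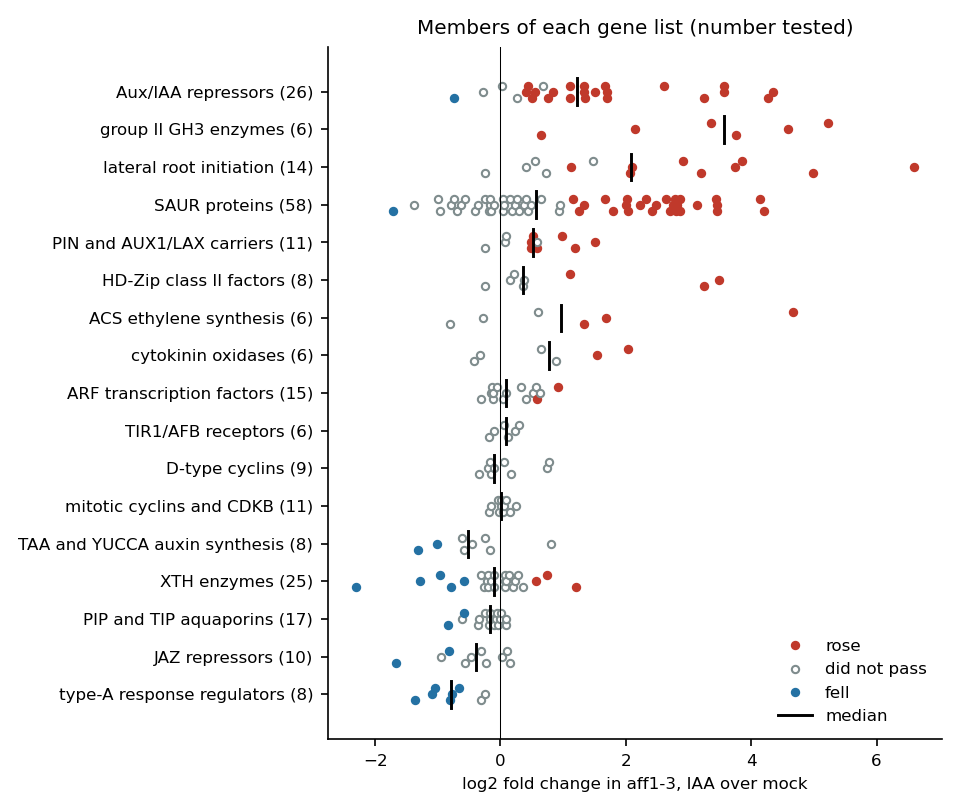
Log2 fold change, IAA over mock in aff1-3, of each tested member of 17 gene lists (number tested in brackets); red points rose, blue points fell, open points did not pass, and the black bar is the list's median. The 6 GH3 genes lie right of 0, and 6 of the 8 type-A response regulators fell; LBD19 is drawn at its fitted value.

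Some genes of other hormones were called, where 2.98% of all genes tested rose and 1.97% fell. Cytokinin signalling genes of the type-A response regulator family, primary cytokinin response genes that act as negative regulators, fell in 6 of 8 cases and rose in 0 (median log2 fold change -0.79). ARR6 had 4.16, 3.34 and 3.4 CPM after IAA and 10.06, 8.95 and 9.38 CPM after mock treatment (log2 fold change -1.37, SE 0.15), and ARR3 (-1.10) and ARR5 (-1.05) followed. Of 6 cytokinin oxidases, which degrade cytokinin, CKX6 (2.03) and CKX1 (1.55) rose and 0 fell. CKX6 had 13.34, 14.95 and 10.43 CPM after IAA and 3.68, 2.95 and 2.9 CPM after mock treatment, without overlap.

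Of 6 ACS ethylene synthesis genes 3 rose, namely ACS4, ACS11 (1.68) and ACS8 (1.33), and 0 fell. Of 8 brassinosteroid genes, the inactivating enzyme BAS1 (1.58) and the synthesis enzymes DWF4 (0.60) and BR6OX2 (0.47) rose, and ROT3 (-0.76) fell. Of 7 gibberellin oxidases, GA2OX8, which inactivates gibberellin, rose (1.24) and GA3OX1, which makes the active form, fell (-0.90). Of 10 JAZ repressors of jasmonate signalling 0 rose and 2 fell, JAZ7 (-1.67) and JAZ4 (-0.81). These short lists stand beside shares of 2.98% rising and 1.97% falling over all genes tested.

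Among transcription factors, 3 of 8 HD-Zip class II genes rose. HAT2, which is auxin-inducible and promotes hypocotyl elongation, had 286.51, 308.87 and 299.02 CPM after IAA and 34.25, 28.41 and 31.42 CPM after mock treatment (log2 fold change 3.25, SE 0.09, adjusted p = 5.53e-16), and HB17 (3.49) and HAT1 (1.11) also rose. Of 73 R2R3 MYB genes 5 rose and 10 fell. MYB39 (2.90), MYB108 (2.06) and MYB93 (1.04), a regulator of lateral root development, had the largest rises. MYB40, MYB34 (-1.70) and MYB122 (-1.58) had the largest falls, and MYB34 had 4.85, 4.19 and 4.27 CPM after IAA and 14.59, 13.91 and 15.08 CPM after mock treatment. MYB34, MYB122 and MYB51 (-0.75) regulate indole glucosinolate synthesis, and MYB28 (-1.16) that of aliphatic glucosinolates; MYB51 and MYB28 were named after their values were seen. Of 75 AP2/ERF genes 3 rose (4%) and 9 fell (12%), of 50 WRKY genes 3 rose (6%) and 2 fell (4%), and of 48 NAC genes 0 rose and 2 fell (4.17%). Over all genes tested 2.98% rose and 1.97% fell, so counts near these shares are not read as a response of the family.

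Of 131 cytochrome P450 genes 5 rose (3.82%, against 2.98% of all genes tested) and 15 fell (11.5%, against 1.97%). CYP96A1 (1.91) had the largest rise, and CYP735A2 and CYP82F1 (-1.67) the largest falls, among the named genes. CYP79B2 and CYP79B3, which convert tryptophan to indole-3-acetaldoxime, both fell, with log2 fold changes of -0.96 and -0.96, as did CYP83B1, the next enzyme toward indole glucosinolates (-0.74); these 3 were named after their values were seen. CYP79B3 had 31.61, 32.70 and 28.12 CPM after IAA and 64.63, 57.58 and 57.85 CPM after mock treatment, without overlap.

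Cell wall families moved in both directions. Of 17 alpha-expansins, proteins that loosen cell walls, 5 rose and 2 fell, with EXPA17 (3.19), EXPA4 (1.41) and EXPA8 (1.09) highest and EXPA14 (-1.30) and EXPA5 (-0.76) lower. Of 25 XTH enzymes, which cut and rejoin xyloglucan, 3 rose and 5 fell, and XTH19 had 157.43, 158.90 and 165.67 CPM after IAA and 57.20, 71.44 and 79.52 CPM after mock treatment (log2 fold change 1.21). Of 49 pectin lyase-like genes 7 rose and 4 fell, of 49 class III peroxidases 3 rose and 6 fell, and of 17 PIP and TIP aquaporins 0 rose and 2 fell. Of 109 UDP-glycosyltransferases 8 rose and 6 fell, and of 41 glutathione S-transferases 7 rose and 2 fell. Over all genes tested 2.98% rose and 1.97% fell.

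Of the lists examined, 6 more had 0 called genes in either direction with edgeR: 9 D-type cyclins, 11 mitotic cyclins and CDKB genes, 10 root hair regulators, 8 flavonoid synthesis genes, 7 heat shock genes and 11 hypoxia genes. Of these 56 genes 9 had an unadjusted p below 0.05, 1 (a root hair regulator) passed with DESeq2 and 0 with limma. The mitotic genes had log2 fold changes from -0.18 to 0.25. Of 8 root iron uptake genes 1 rose, of 6 nitrate genes 1 fell, and of 81 TIR-NBS-LRR genes 1 rose and 1 fell (1.23% each). Over all genes tested 2.98% rose and 1.97% fell.

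The SAUR family rose in 26 of 58 tested genes and fell in 1, AT4G31320 (log2 fold change -1.71), with a median of 0.57 over the family. These are 44.8% and 1.72%, against 2.98% and 1.97% of all genes tested. Many of these genes sit side by side in the genome, and 3 of 6 runs of neighbours were chosen after their values were seen. On chromosome 1, from AT1G29420 to AT1G29510 (TAIR10.1, 10301377 to 10323239, 21.9 kb), 8 of 8 genes rose, with a median log2 fold change of 2.58. On chromosome 3, from AT3G03820 to AT3G03850, 4 of 4 tested genes rose (median 2.36), and on chromosome 5, from AT5G18010 to AT5G18080, 6 of 6 rose (median 2.84). The other 3 runs had fewer called genes: from AT2G21200 to AT2G21220 0 of 2 tested genes rose, from AT4G34750 to AT4G34810 2 of 4 rose, and from AT4G38825 to AT4G38860 1 of 3 rose (median 0.18 in aff1-3 and 0.22 in Wt). Neighbouring SAUR genes are close in sequence, and only uniquely aligned reads were counted, so the split of counts among them is uncertain.

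In every one of these 18 genes the log2 fold change was larger in aff1-3 than in Wt. The medians in aff1-3, aff1-1 and Wt were 2.58, 1.5 and 0.94 on chromosome 1, 2.36, 1.89 and 0.98 on chromosome 3, and 2.84, 1.79 and 1.61 on chromosome 5. Over all 578 genes that rose in aff1-3, 214 (37.0%) had a larger log2 fold change there than in Wt, and over the 26 SAUR genes that rose 24 (92.3%) did. Over all 58 tested SAUR genes 41 had the larger log2 fold change in aff1-3, and over all 19383 genes tested 9934 did. The 18 genes kept the larger value in aff1-3 in every alternative fit except those without Wt IAA sample 1 or Wt IAA sample 3, where 17 did. These fits reuse the same samples, and the 18 genes were chosen by their rises in aff1-3, so this is not separate support.

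**Figure D3:**
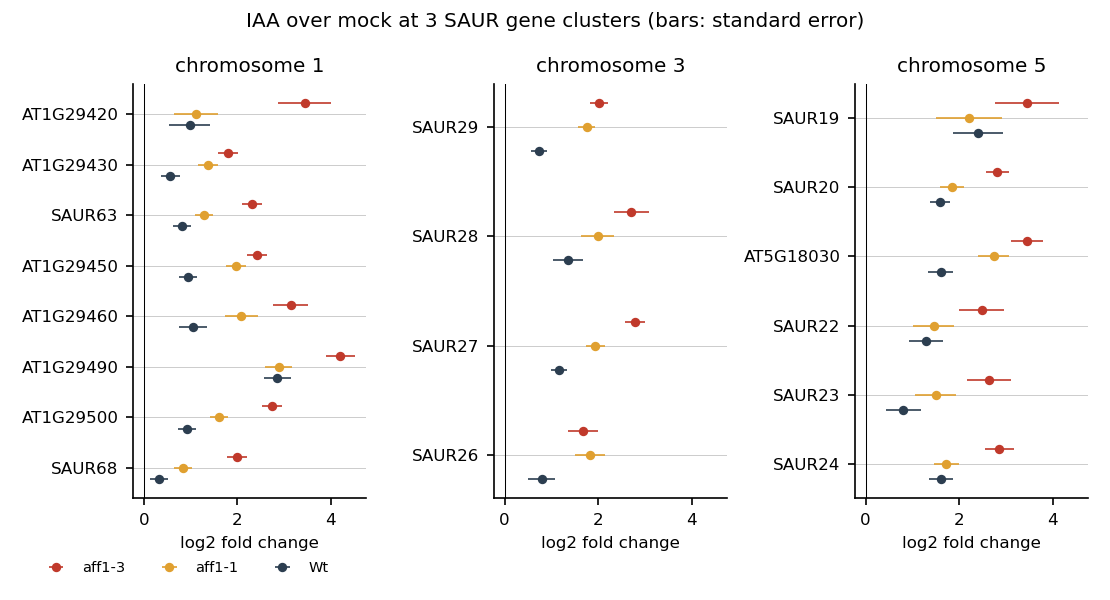
Log2 fold change, IAA over mock, of the 18 tested SAUR genes of 3 gene clusters in aff1-3 (red), aff1-1 (yellow) and Wt (dark), with bars of 1 standard error, in chromosomal order. In each gene the aff1-3 point lies right of the Wt point, and AT1G29490 has the largest value, 4.21 in aff1-3.

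The levels show where this difference lay. The summed level of the 18 genes was 83.4, 90.2 and 109 CPM after IAA and 18.1, 18.6 and 14.6 CPM after mock treatment in aff1-3. In aff1-1 it was 93.1, 78.1 and 84.7 CPM after IAA and 31.7, 30.7 and 19.7 CPM after mock treatment, and in Wt it was 87.4, 88.9 and 88.2 CPM after IAA and 45.1, 46.5 and 39.4 CPM after mock treatment. After IAA the 3 genotypes overlapped, while every mock sample of aff1-3 was below every mock sample of aff1-1 and of Wt. Every mock sample of aff1-1 was also below every mock sample of Wt. The mean mock level was lower in aff1-3 than in Wt in 18 of 18 genes (50.1% of all tested genes), and the mean level after IAA was higher in 10 of 18 (48.7% of all tested genes). A lower mean mock level than in Wt was also found in aff1-1, in 17 of the 18 genes (50% of all tested genes). Since the genes were chosen by their responses, these are descriptions and were not tested.

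**Figure D4:**
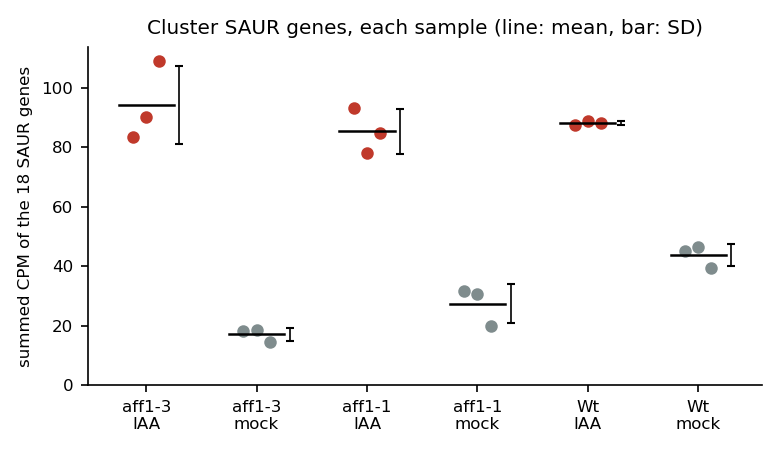
Summed CPM of the 18 cluster SAUR genes in each sample; points are samples, horizontal lines group means and vertical bars the standard deviation (n = 3). The IAA samples of the 3 genotypes lie between 78.1 and 109 CPM. The mock samples lie between 14.6 and 18.6 CPM in aff1-3, 19.7 and 31.7 CPM in aff1-1, and 39.4 and 46.5 CPM in Wt.

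Promoters are shown for 5 genes that carry these results, picked from those with a motif match, namely GH3.3 and IAA5 of the largest rises, IAA19, and the neighbours AT1G29500 and SAUR68 of the chromosome 1 cluster. Each run is the 250 bases before the annotated gene start (RefSeq, TAIR10.1), 5′ to 3′ on the gene's strand, at chr2:9866563-9866812 (minus), chr1:5366498-5366747 (minus), chr3:5263751-5264000 (plus), chr1:10320761-10321010 (plus) and chr1:10322173-10322422 (plus) in that order. Capitals mark TGTCTC, the auxin response element as first described, or its variant forms TGTCGG or TGTCCC, on either strand.
GH3.3: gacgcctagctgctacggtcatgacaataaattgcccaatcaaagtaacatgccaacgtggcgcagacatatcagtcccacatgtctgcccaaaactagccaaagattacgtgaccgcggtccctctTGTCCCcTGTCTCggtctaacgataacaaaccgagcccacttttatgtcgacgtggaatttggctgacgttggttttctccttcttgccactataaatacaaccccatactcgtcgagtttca
IAA5: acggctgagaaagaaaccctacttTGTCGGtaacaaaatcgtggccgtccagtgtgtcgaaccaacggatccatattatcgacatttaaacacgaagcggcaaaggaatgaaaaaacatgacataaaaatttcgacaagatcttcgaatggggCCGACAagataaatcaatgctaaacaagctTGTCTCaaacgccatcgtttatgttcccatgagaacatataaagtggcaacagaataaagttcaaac
IAA19: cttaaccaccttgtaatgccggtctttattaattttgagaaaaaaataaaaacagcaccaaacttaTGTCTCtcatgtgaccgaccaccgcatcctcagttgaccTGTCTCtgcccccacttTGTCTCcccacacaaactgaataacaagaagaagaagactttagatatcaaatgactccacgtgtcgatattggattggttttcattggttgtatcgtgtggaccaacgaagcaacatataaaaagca
AT1G29500: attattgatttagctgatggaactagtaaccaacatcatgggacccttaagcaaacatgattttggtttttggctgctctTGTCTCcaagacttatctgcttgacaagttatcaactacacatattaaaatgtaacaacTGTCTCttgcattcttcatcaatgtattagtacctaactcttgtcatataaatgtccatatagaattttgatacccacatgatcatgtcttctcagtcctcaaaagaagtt
SAUR68: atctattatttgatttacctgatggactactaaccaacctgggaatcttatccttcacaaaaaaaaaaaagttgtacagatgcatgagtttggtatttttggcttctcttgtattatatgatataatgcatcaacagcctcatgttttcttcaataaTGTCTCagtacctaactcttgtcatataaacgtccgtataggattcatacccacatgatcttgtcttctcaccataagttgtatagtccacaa

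GH3.3 held a TGTCCC and a TGTCTC separated by 1 base, IAA5 held 1 TGTCTC and 2 TGTCGG, and IAA19 held 3 TGTCTC. AT1G29500 held 2 TGTCTC and SAUR68 held 1. At least 1 of the 3 motifs was found in 25.3% of genes that rose (146 of 578), in 28.7% of those that rose at least 2-fold, in 18.1% of those that fell, and in 18.0% of all tested genes with a window. For the 26 Aux/IAA genes the share was 50%, and for the 58 SAUR genes 24.1%. Of the 10 largest rises 4 had a match, and LBD29, ACS4, IAA29 and AT1G29490 were among those with none, as was SAUR27. A match is a description of letters and not a site.

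The response in aff1-3 was set against that in Wt by a test of the difference of the log2 fold changes. It passed for 17 genes (0.0877% of those tested), of which 7 had a positive and 10 a negative difference. The count depended on single samples, at 14 without Wt mock sample 1, 30 without Wt mock sample 3 or aff1-3 mock sample 1, and 8 to 11 without each of the other 9 samples of the 2 genotypes. It was 117 with DESeq2, 51 with the replicate block, 43 without the filter on low counts and 11 with limma. Among genes that rose in both genotypes, GH3.1, another IAA-conjugating enzyme, had 55.47, 61.80 and 51.67 CPM after IAA and 3.75, 4.65 and 4.06 CPM after mock treatment in aff1-3, and 111.45, 113.86 and 109.78 CPM after IAA and 3.47, 2.60 and 3.35 CPM after mock treatment in Wt. Its log2 fold change was 3.77 in aff1-3 and 5.14 in Wt, a difference of -1.38 (SE 0.16, adjusted p = 0.00024), and its IAA samples in aff1-3 were all below those in Wt.

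AT5G38200, annotated as a class I glutamine amidotransferase-like protein, differed on the mock side. It had 73.35, 68.23 and 77.26 CPM after IAA and 18.38, 14.18 and 15.52 CPM after mock treatment in aff1-3, and 69.17, 59.60 and 73.96 CPM after IAA and 3.3, 3.82 and 4.41 CPM after mock treatment in Wt. The IAA samples of the genotypes overlapped and the mock samples of aff1-3 were all higher, so that the log2 fold change was 2.18 in aff1-3 and 4.12 in Wt (difference -1.94, adjusted p = 0.00024). The mock samples of aff1-1 were also all above those of Wt, at 18.32, 11.18 and 20.57 CPM. ZFP2, a zinc finger transcription factor, had 21.69, 17.10 and 19.43 CPM after IAA and 2.86, 4.29 and 3.24 CPM after mock treatment in aff1-3, and 24.50, 20.29 and 26.34 CPM after IAA and 0.92, 0.55 and 0.81 CPM after mock treatment in Wt. Here too the mock samples of aff1-3 were above all mock samples of Wt (difference -2.45, adjusted p = 0.0013).

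MAKR4, a membrane-associated kinase regulator that acts in lateral root formation, had 71.75, 73.57 and 72.44 CPM after IAA and 5.57, 6.67 and 5.7 CPM after mock treatment in aff1-3, and 99.8, 99.67 and 99.56 CPM after IAA and 2.97, 3.02 and 3.74 CPM after mock treatment in Wt (difference -1.32, adjusted p = 0.0011). It was lower in aff1-3 after IAA and higher there after mock treatment, with no overlap on either side. AIR12, a membrane protein named for its induction by auxin in root cultures, had 157.22, 145.84 and 135.17 CPM after IAA and 83.32, 97.21 and 82.24 CPM after mock treatment in aff1-3, and 193.24, 192.42 and 164.91 CPM after IAA and 46.46, 55.02 and 59.24 CPM after mock treatment in Wt. Its groups lay in the same order as those of MAKR4 (difference -1.04, adjusted p = 0.0086).

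Among genes that fell, LBD25 had 5.93, 5.93 and 7.43 CPM after IAA and 13.04, 15.57 and 11.43 CPM after mock treatment in aff1-3, and 1.25, 1.77 and 1.44 CPM after IAA and 11.53, 13.93 and 12.14 CPM after mock treatment in Wt. Mock levels overlapped, and the level after IAA was higher in each aff1-3 sample (log2 fold change -1.06 in aff1-3 and -3.04 in Wt, difference 1.97, adjusted p = 0.00025). AT3G01260, a galactose mutarotase-like protein, also fell less in aff1-3 (-1.04) than in Wt (-2.98).

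In 2 genes of the chromosome 1 SAUR cluster and 1 of the chromosome 3 cluster the difference passed with the larger rise in aff1-3. AT1G29500 had 11.95, 11.51 and 12.09 CPM after IAA and 1.93, 1.79 and 1.56 CPM after mock treatment in aff1-3, and 8.75, 9.45 and 9.31 CPM after IAA and 4.85, 5.16 and 4.55 CPM after mock treatment in Wt (difference 1.82, adjusted p = 0.0056). SAUR68 (difference 1.68) and SAUR27 (difference 1.63) were past the threshold at an adjusted p of 0.0091 each. For SAUR68 the log2 fold change was 2.00 in aff1-3 and 0.32 in Wt.

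AT5G41740, annotated as a TIR-NBS-LRR protein, had 9.74, 9.57 and 12.56 CPM after IAA and 21.09, 30.33 and 28.14 CPM after mock treatment in aff1-3 (log2 fold change -1.33), and 20.35, 18.55 and 15.77 CPM after IAA and 13.33, 13.85 and 17.16 CPM after mock treatment in Wt (0.29). Of the 17 genes, 7 passed in each of 12 fits that left out 1 sample of aff1-3 or Wt, and these were AT2G41380, AT3G01260, AT4G30170, AT5G38200, GH3.1, LBD25 and MAKR4. AT4G17350 and SAUR27 did not pass in any of those 12 fits, and 10 of the 17 passed with limma.

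**Figure D5:**
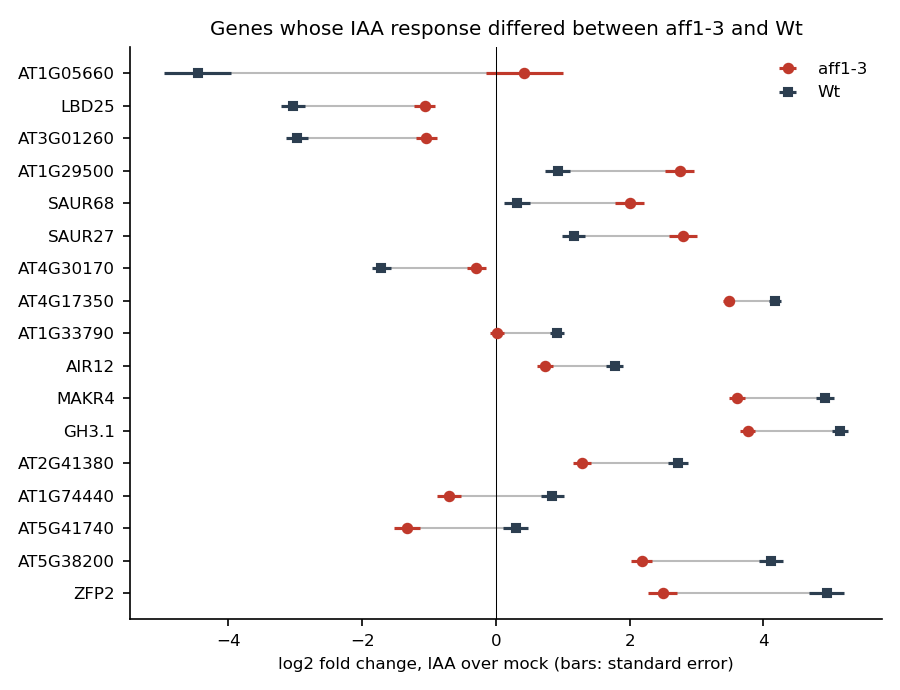
Log2 fold change, IAA over mock, in aff1-3 (red circles) and Wt (dark squares) for the 17 genes whose responses differed, with bars of 1 standard error. GH3.1, AT5G38200 and ZFP2 lie further right in Wt, LBD25 and AT3G01260 lie nearer 0 in aff1-3, and the 3 SAUR genes lie further right in aff1-3.

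Against aff1-1, 0 genes (0%) had a different response with edgeR, 1368 (7.06%) had an unadjusted p below 0.05, and 1 passed with DESeq2. The smallest adjusted p was 0.417. This does not show that the responses of the 2 lines were alike. Of the 17 genes that differed from Wt, most had log2 fold changes in aff1-1 nearer those of aff1-3 than of Wt. They were GH3.1 (3.98), MAKR4 (3.78), ZFP2 (2.26), AT5G38200 (1.48), LBD25 (-1.29), AT3G01260 (-1.72), AT2G41380 (1.365), AT1G33790 (0.11), AT4G17350 (3.45), AIR12 (1.18) and AT1G05660 (-1.22). Those of AT5G41740 (0.11), AT1G74440 (0.38), AT4G30170 (-1.17), AT1G29500 (1.61), SAUR68 (0.83) and SAUR27 (1.94) lay nearer those of Wt. The difference between aff1-1 and Wt was not tested.

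Of the 959 genes called in aff1-3, 146 were called neither in Wt nor in aff1-1 (48 rose and 98 fell), but the test of the difference from Wt passed for 1 of the 146, AT5G41740. Of the 146, 99 had the same sign in both other genotypes. Across all 19383 genes tested, the log2 fold changes of aff1-3 had a Pearson's r of 0.672 with those of aff1-1 and 0.688 with those of Wt; genes are not independent. Across the 959 genes, which were chosen by their value in aff1-3, it was 0.93 with aff1-1 and 0.905 with Wt.

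Of these 146 genes, 3 are given as examples of falls and were named after their values were seen. SZF1, a zinc finger protein of salt responses, had 45.64, 50.14 and 60.28 CPM after IAA and 83.32, 169.15 and 119.28 CPM after mock treatment in aff1-3 (log2 fold change -1.26), and log2 fold changes of 0.10 in aff1-1 and 0.18 in Wt. CYP707A3, which breaks down abscisic acid, had 23.16, 24.07 and 37.13 CPM after IAA and 48.80, 68.18 and 93.85 CPM after mock treatment in aff1-3 (log2 fold change -1.34), against -0.06 in aff1-1 and -0.25 in Wt. The immune regulator WRKY18 had 16.11, 17.79 and 23.23 CPM after IAA and 37.11, 61.65 and 49.70 CPM after mock treatment in aff1-3 (log2 fold change -1.39), against -0.33 in aff1-1 and -0.54 in Wt. In each of these genes the groups did not overlap, and the mock samples of aff1-3 differed from each other more than its IAA samples did. None of SZF1, CYP707A3 and WRKY18 had a response shown to differ from Wt (adjusted p = 0.067, 0.27 and 0.33).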

How the data were processed

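The study's methods name ribosomal RNA removal before sequencing, while the labels name the SMARTer cDNA kit. The authors deposited 1 table of counts, without normalization, made by aligning reads to TAIR10 with STAR and counting those with 1 unambiguous place with featureCounts. The strand setting of the counting is not given in the sources used here, so overlapping antisense genes are uncertain. Of 28278 rows, 99.0% matched a TAIR10.1 locus, from which names, families and promoters were taken, and 4 ribosomal RNA genes were left out. All per-sample columns were used. A gene entered the test if 2 or more samples of some group exceeded 1 CPM.

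Fits used the quasi-likelihood functions of edgeR 4.0.16 under R 4.3.3, with TMM scaling, on all 18 samples as 6 group means (12 residual degrees of freedom), with a Benjamini-Hochberg adjusted p below 0.01. Differences of responses were contrasts of the same fit. Alternatives used limma 3.58.1 with sample weights, DESeq2 1.42.0, other size factors, other filters and thresholds, the 6 aff1-3 samples alone, the replicate number as a block, and each sample left out in turn. The scripts were tested on simulated counts.

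Named genes are the 10 largest rises and falls (mean of at least 10 counts, no overlap), the 10 smallest adjusted p of each difference of responses (the other 7 of the 17 were added), up to 3 largest called rises and falls per list, and AFF1. Not every gene that this rule names is reported here. The members and lists were chosen with earlier results of these data known. Counts of 3 or fewer in every sample of a group were treated as the floor, and such limits cover counting error only.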

Additional observations from a re-analysis of the deposited data

Results flagged for a closer look

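The 17 genes below had an IAA response that differed between aff1-3 and Wt by the test of the difference itself (edgeR's quasi-likelihood test, adjusted p below 0.01), each given as the log2 fold change in aff1-3 minus that in Wt. The difference was negative for ZFP2 (-2.45), AT5G38200 (-1.94), AT5G41740 (-1.63), AT1G74440 (-1.55), AT2G41380 (-1.44), GH3.1 (-1.38), MAKR4 (-1.32), AIR12 (-1.04), AT1G33790 (-0.89) and AT4G17350 (-0.70). All of these but AT5G41740 rose in Wt and had a smaller rise or no called rise in aff1-3. AT5G41740 was not called in Wt (log2 fold change 0.29) and fell in aff1-3 (-1.33). AT1G74440 had a log2 fold change of -0.70 in aff1-3, which did not pass, and 0.85 in Wt.

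The difference was positive for AT1G05660 (4.88), LBD25 (1.97), AT3G01260 (1.93), AT1G29500 (1.82), SAUR68 (1.68), SAUR27 (1.63) and AT4G30170 (1.42). AT1G05660, a pectin lyase-like gene, had 0.30, 0.45 and 0.40 CPM after IAA and 0.27, 0.36 and 0.22 CPM after mock treatment in aff1-3, and 0.06, 0.22 and 0.04 CPM after IAA and 4.05, 3.02 and 1.45 CPM after mock treatment in Wt. Its difference was 6.11 without Wt IAA sample 2, but it did not pass in 10 of 12 fits that left out 1 sample. With limma the adjusted p was 0.016. The gene entered the test only through the Wt mock samples, and every sample of the other groups was below 1 CPM. AT4G30170, a peroxidase, had 71.31, 69.63 and 77.50 CPM after IAA and 101.20, 73.19 and 92.62 CPM after mock treatment in aff1-3, and 53.08, 53.69 and 50.85 CPM after IAA and 181.30, 187.27 and 148.60 CPM after mock treatment in Wt.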

How the results depend on the processing

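For aff1-3, 578 genes rose and 381 fell. An adjusted p below 0.05 gave 905, 724 and 1629 (rose, fell, all), an added log2 fold change of at least 1 gave 300, 124 and 424, and the 6 aff1-3 samples alone gave 347, 212 and 559. Leaving out 1 sample in turn gave 455 to 522, 221 to 365 and 676 to 886, with 221 falls without aff1-3 IAA sample 1 or 2; fewer samples were then fitted. The members of the fixed lists called were 75, and 61 to 70 with 1 sample left out.

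The count of genes whose response differed from Wt (7 higher, 10 lower, 17 in all) depended on the method. It was 61, 56 and 117 with DESeq2, 4, 7 and 11 with limma, 21, 22 and 43 with no filter on low counts, and 48, 50 and 98 at an adjusted p below 0.05. Leaving out 1 sample gave 3 to 16 higher, 5 to 20 lower and 8 to 30 in all, with 30 without Wt mock sample 3 or aff1-3 mock sample 1, and 8 without Wt mock sample 2, Wt IAA sample 1 or 3, or aff1-3 IAA sample 1. Against aff1-1, 0 genes differed, with 1 lower and 1 in all with DESeq2 and 0 to 1 with 1 sample left out (without aff1-1 mock sample 3 or aff1-1 IAA sample 1). The causes were not tested.

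The labels number replicates but do not say that a number marks a shared day. Same-numbered samples of aff1-3 deviated together with correlations of 0.122, 0.074 and 0.095. With the replicate block, 581 genes rose, 435 fell and 1016 were called in aff1-3, and 18, 33 and 51 differed from Wt. None of the 20 largest rises and falls and of the 17 differences from Wt changed its sign in the alternatives run on them, while 17 of the 18 cluster SAUR genes had the larger value in aff1-3 without Wt IAA sample 1 and 17 without Wt IAA sample 3. Of the 20 largest rises and falls, 16 passed in each fit with 1 aff1-3 sample left out, 20 with DESeq2 and 19 with limma. Genes under about 1 CPM rest on few counts.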
